A study of Homo sapiens with 12 samples.

Results

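The genes described here encode aminoacyl-tRNA synthetases, the enzymes that attach each amino acid to its tRNA. They were chosen by name: 35 of the 63677 genes in the count table, of which 19 encode cytosolic enzymes and 16 encode mitochondrial enzymes, whose symbols end in 2. Each matched 1 Ensembl identifier, and 35 of 35 had enough reads to be tested among 17730 tested genes. GARS1 and KARS1 also encode the mitochondrial enzyme for their amino acid and were kept with the cytosolic ones.

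The cells were HCT116, an epithelial line established from a colon carcinoma, and polyadenylated RNA was sequenced from 12 cultures in 6 groups of 2. The study asked how knockdown of all NFYA transcripts compares with knockdown of the form that ends in a long 3′ untranslated region. The mock group was transfected without siRNA, siControl received a non-targeting siRNA, siTotal1 and siTotal2 received different siRNAs to all NFYA transcripts, and siLong1 and siLong2 received different siRNAs to the long form. Each siRNA was used at 62.5 nM and cells were harvested after 72 h, and no other agent or allele separated the groups. The libraries of a group are biological duplicates per the design text. A p-value rests on the spread between duplicates, pooled over the 6 groups, and leaves out the spread between siRNAs to the same target. In bulk RNA, fewer cells of a kind and less RNA per cell cannot be told apart.

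Synthetases are essential in every cell, since translation needs all its tRNAs charged. Cytosolic and mitochondrial translation use largely separate sets of enzymes, all encoded in the nucleus, with GARS1 and KARS1 serving both. When an amino acid runs short, uncharged tRNA activates the kinase GCN2, eIF2alpha is phosphorylated, and the transcription factor ATF4 is translated and induces amino acid transporters, synthesis enzymes and many cytosolic synthetases. NFYA is the subunit through which NF-Y recognises CCAAT boxes in promoters.

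Because ATF4 acts with C/EBP proteins at a known response element and NF-Y at CCAAT, the promoters of the members were searched for the words TGATGNAA and CCAAT on both strands. The windows came from RefSeq on GRCh38.p14 and ran from 250 bases before to 50 bases after a transcription start, and 30 of the 35 members had a window there (all but YARS1, LARS1, VARS1, VARS2 and AARS2). TGATGNAA was found for 7 of 16 cytosolic genes and 1 of 14 mitochondrial genes, beside 4.46% of all 27305 genes with a window. The stretches of the 7 cytosolic genes are shown because AARS1, CARS1, GARS1 and MARS1 are among the genes whose RNA fell most, and the capitals mark the word on either strand:
AARS1, chr16:70289678-70289704, minus strand: ttttctcgcagTTGCATCAgccaagtt
CARS1, chr11:3057410-3057436, minus strand: cggggcggcggTTGCATCAgattctag
GARS1, chr7:30594834-30594860, plus strand: ttacgcggcgaTTTCATCAtgctccga
IARS1, chr9:92293695-92293721, minus strand: ttttcagcgcgTTGCATCAcctccgtg
MARS1, chr12:57488053-57488079, plus strand: gccggttccggTTGCATCAgcgaggga
NARS1, chr18:57621807-57621833, minus strand: tctacgctctcTGATGCAAcgccggaa
TARS1, chr5:33440956-33440982, plus strand: gcgcctttcgaTTGCATCAgctggtcc

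The word TGATGNAA also stood 197 bases before the start of YARS2, the mitochondrial tyrosyl enzyme. CCAAT was found for 7 of 16 cytosolic and 9 of 14 mitochondrial genes, beside 39.7% of all genes with a window. Examples are shown for AARS1 and IARS1, which hold both words, and for QARS1, which is called in opposite directions below. The capitals mark CCAAT on either strand:
AARS1, chr16:70289539-70289565, minus strand: ggcgcgctctgATTGGacggagcgtgg
IARS1, chr9:92293793-92293819, minus strand: gtccggcgcgaCCAATcggcgcctggc
QARS1, chr3:49104788-49104814, minus strand: gcttcactctcATTGGtcagcgagtga

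A match describes the letters only. Binding of ATF4, C/EBP or NF-Y was not measured in these libraries.

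The libraries held 35604197 to 49746637 reads assigned to genes. NFYA itself stood at 55.2 and 59.15 in mock, 57.4 and 57.5 in siControl, 47.9 and 46.8 in siTotal1, 46.01 and 46.15 in siTotal2, 47.65 and 46.5 in siLong1, and 69.7 and 70.15 in those labelled siLong2, in CPM (read counts scaled to library size, with TMM factors). It was lower than in both controls for siTotal1, siTotal2 and siLong1 and higher for siLong2, against that label, so those are called the libraries labelled siLong2. The counts pool all forms of NFYA, and the long form alone was not measured. Of the 7 epithelial markers 6 were tested, and VIL1, at 0.028 to 0.17 CPM over the libraries, did not pass the count filter. The summed level of the 7 was 5500 to 5520 CPM in siLong1 and 5050 to 5240 CPM in the libraries labelled siLong2. It was 3330 to 3820 CPM in the other groups. KRT8, KRT18 and KRT19 were higher in the 4 siLong libraries than in all 8 others, while EPCAM, at 257 to 301 CPM with siLong and 164 to 279 CPM elsewhere, CDH1 and CLDN7 overlapped the other groups. The part of these differences in the synthetase results was not tested. Summed markers of other cells were at most 43.9 CPM for fibroblasts, 0.501 CPM for blood, 1.22 CPM for endothelium and 23.3 CPM for neural cells, and PECAM1, which defines endothelium, was at 0 in every library.

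Levels between genes were compared per length, as mean CPM per kilobase of exon over the 12 libraries. The length was that of all annotated exons of a gene merged, so the ranking depends on which exons are annotated. Cytosolic genes ranged from 9.76 for CARS1 (cysteine) to 74.0 for KARS1 (lysine), with a median of 53.0. Mitochondrial genes ranged from 1.85 for WARS2 (tryptophan) to 50.8 for IARS2 (isoleucine), with a median of 7.99. IARS2 was the only mitochondrial gene above the cytosolic genes HARS1 (20.4) and LARS1, and CARS1 the only cytosolic gene below any mitochondrial gene other than IARS2. YARS2 (20.2) and HARS1 (20.4) had overlapping ranges per kilobase over the libraries. Their merged exon lengths were 2152 and 7853 bases, and their mean levels without length scaling were 43.5 and 160.3 CPM. The read numbers behind these values were 2656 to 28038 per library for cytosolic genes and 157 to 12900 for mitochondrial genes.

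**Figure D1:**
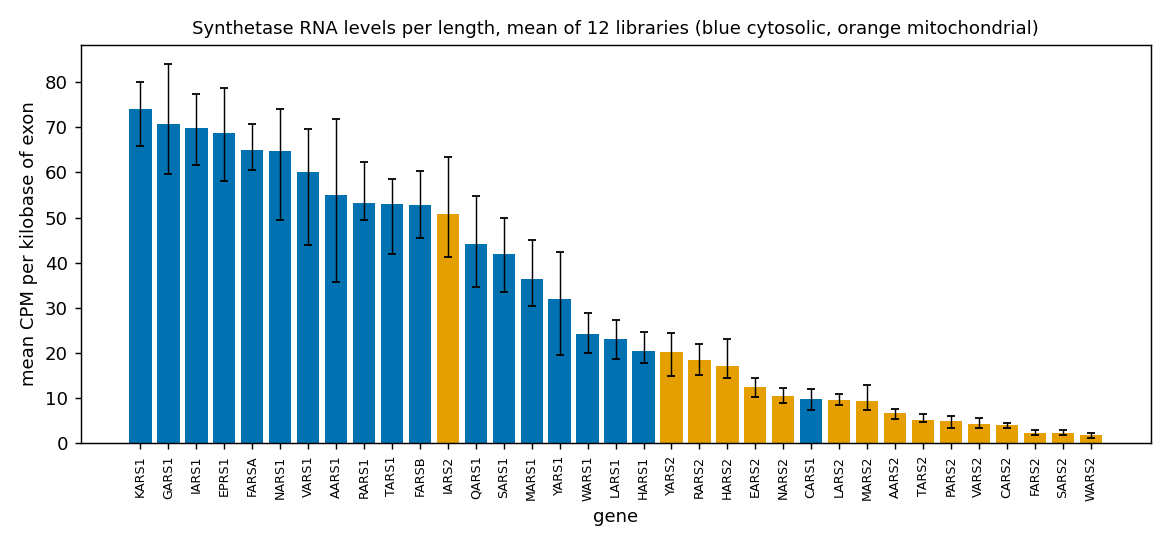
Mean CPM per kilobase of exon (y axis, linear) for each of the 35 genes (x axis) over the 12 libraries, blue for cytosolic and orange for mitochondrial genes, with bars from the lowest to the highest library. The cytosolic genes fill the left of the order, except for IARS2 on the mitochondrial side and CARS1 on the cytosolic side.

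Summed over the 19 cytosolic genes, the level was lower in each siRNA group against NFYA than in either control. It was 5025 ± 20.9 CPM in mock, 5156 ± 25 in siControl, 4727 ± 201 in siTotal1, 4410 ± 64.3 in siTotal2, 4352 ± 24.3 in siLong1, and 4363 ± 33 in those labelled siLong2 (each SD over n = 2). The sum over the 16 mitochondrial genes was 797.9 ± 0.156 CPM in mock, 730.7 ± 5.49 in siControl, 714.9 ± 7.92 in siTotal1, 721.5 ± 0.75 in siTotal2, 653.3 ± 4.72 in siLong1, and 741.1 ± 3.54 in those labelled siLong2. For the mitochondrial sum the controls differed from each other by more than siTotal1, siTotal2 or the libraries labelled siLong2 differed from siControl. These sums were not tested.

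With all NFYA transcripts targeted (siTotal against siControl, mean of both siRNAs), RNA of most cytosolic synthetases fell, by small amounts. Of 19 cytosolic genes, 12 fell, 3 rose and 4 did not pass the test, where 22.2% of all tested genes fell and 22% rose, 44.2% in all. Their median log2 fold change was -0.18, beside 0.002 over all tested genes. Of 16 mitochondrial genes, 3 fell, 4 rose and 9 did not pass, with a median of -0.024, and without siControl replicate 1 only 4 of the 16 were called. The largest fall was that of YARS1, which charges tyrosine, and the largest rise among cytosolic genes that of QARS1, which charges glutamine.

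With the long form targeted (siLong against siControl), 15 of 19 cytosolic genes fell, 3 rose and 1, FARSA, did not pass, where 28.4% of all tested genes fell and 25.1% rose, 53.5% in all. The cytosolic median was -0.199, beside -0.012 over all tested genes. Of the 16 mitochondrial genes, 7 fell, 4 rose and 5 did not pass, with a median of -0.054. The siLong mean draws partly on the libraries labelled siLong2, and siLong1 alone gave 12 cytosolic genes lower and 2 higher. This comparison uses the same siControl libraries as the one with siTotal, so the counts are given side by side and their likeness is no result.

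Against mock, the other control, siTotal gave 13 cytosolic genes lower and 1 higher, with a median of -0.134, where 14.2% of all tested genes were lower and 16.6% higher, 30.8% in all. That share is 5455 genes, and without mock replicate 1 the number was 3505. Mitochondrial genes were lower in 6 cases and higher in 0, with a median of -0.09. For siLong against mock the cytosolic counts were 12 lower and 3 higher, with a median of -0.184, and the mitochondrial counts 6 lower and 0 higher, with a median of -0.112, where 26.4% of all tested genes were lower and 24.4% higher, 50.8% in all. The controls also differed from each other: in mock against siControl, 6 cytosolic genes were lower and 3 higher, with 20.3% of all tested genes lower and 19.5% higher (39.8% in all), and 1 mitochondrial gene was lower and 6 were higher.

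A stricter description counts genes whose libraries do not overlap. For 6 cytosolic genes (AARS1, EPRS1, GARS1, IARS1, MARS1 and YARS1) all 8 siTotal and siLong libraries lay below all 4 mock and siControl libraries, a pattern held by 1.97% of all tested genes. For 0 mitochondrial genes was this so, and 0 of the 35 had all 8 libraries above the controls, beside 2.22% of all tested genes. With siTotal alone set against the controls, 9 cytosolic genes and 1 mitochondrial gene (HARS2) lay wholly below, beside 5.52% of all tested genes, and HARS1 lay wholly above, beside 6.35%. With siLong alone, 8 cytosolic and 3 mitochondrial genes (EARS2, IARS2 and NARS2) lay wholly below, beside 12.6%, and FARSB wholly above, beside 11.7%.

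**Figure D2:**
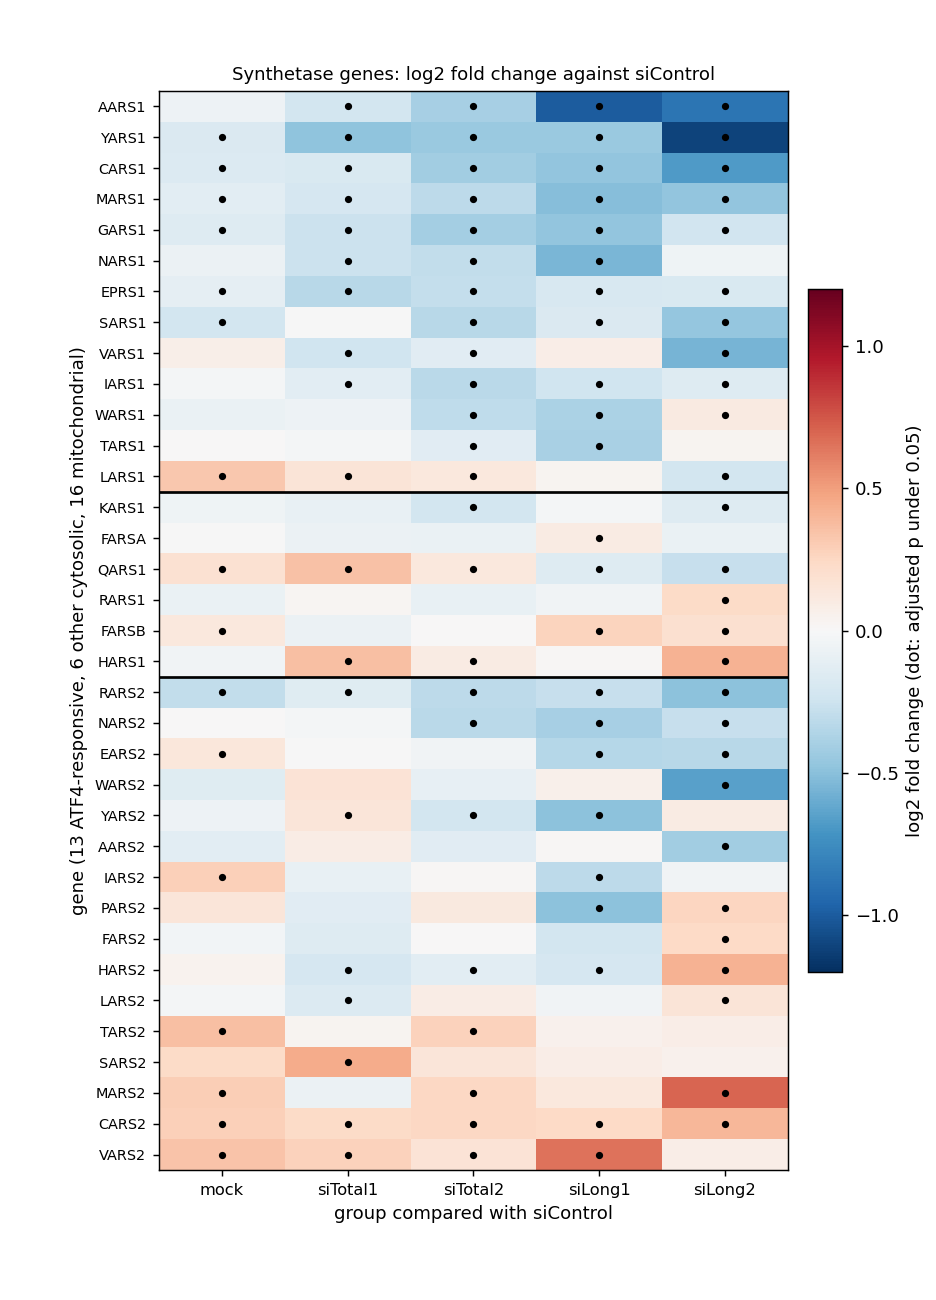
Log2 fold change of each synthetase gene (y axis) against siControl in mock and in each siRNA group (x axis), blue for lower and red for higher, with a dot at an adjusted p under 0.05 and lines between the ATF4-responsive cytosolic, other cytosolic and mitochondrial genes. The AARS1, YARS1, CARS1, MARS1 and GARS1 rows carry dots on blue in the 4 siRNA groups against NFYA, and the mitochondrial rows hold both colours.

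The cytosolic genes were divided into 13 known from other work to respond to ATF4 and 6 others. Of the 13, 11 fell and 1 (LARS1) rose in siTotal against siControl, with a median of -0.257, where 22.2% of all tested genes fell and 22% rose. In siLong against siControl 13 fell, with a median of -0.303, where 28.4% of all tested genes fell and 25.1% rose. Of the 6 others, 1 fell and 2 rose with siTotal (median -0.035), and 2 fell and 3 rose with siLong (median 0.053). Against mock, 11 of the 13 were lower with siTotal and 11 with siLong, and 2 and 1 of the 6 others were lower, beside 14.2% and 26.4% of all tested genes. Of the 13, LARS1 and VARS1 did not pass with siLong1 alone, at 0.033 (adjusted p = 0.52) and 0.079 (adjusted p = 0.083). In the libraries labelled siLong2 alone 10 of the 13 were lower, WARS1 was higher at 0.11 (adjusted p = 0.034), and NARS1 and TARS1 did not pass, at -0.056 (adjusted p = 0.24) and 0.034 (adjusted p = 0.52). The difference between the 13 and the 6 was not tested.

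**Figure D3:**
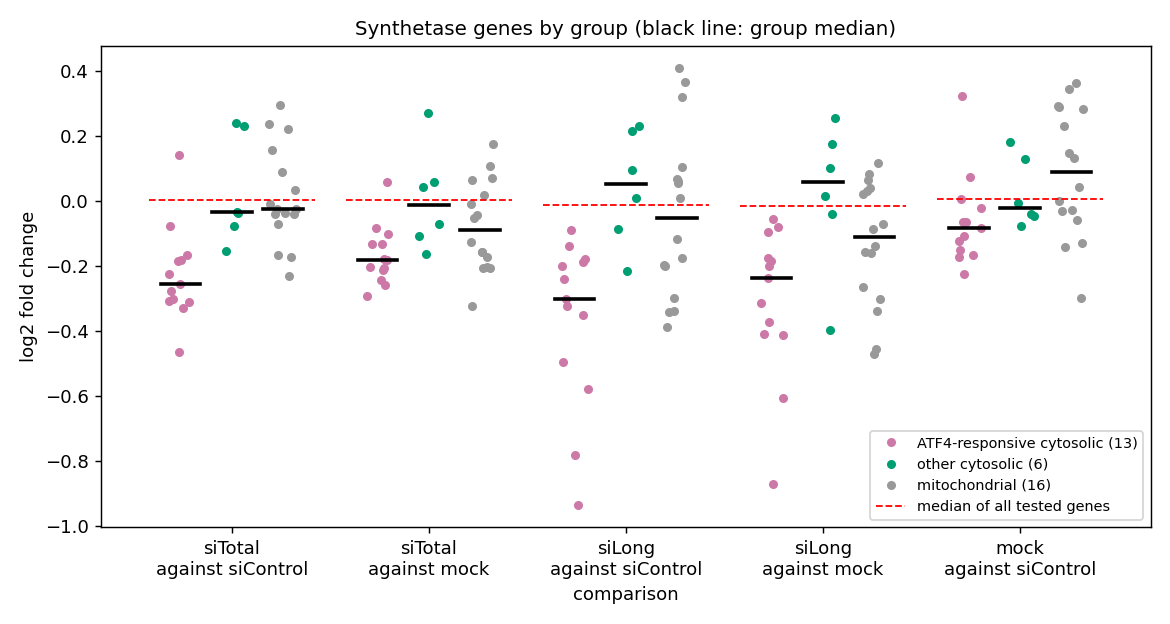
Log2 fold change (y axis) of each synthetase gene (points) in 5 comparisons (x axis), for the 13 ATF4-responsive cytosolic, 6 other cytosolic and 16 mitochondrial genes, with a black line at the median of each group and a dashed line at the median of all tested genes. The ATF4-responsive medians lie at -0.257 and -0.303 for siTotal and siLong against siControl and at -0.182 and -0.237 against mock, and at -0.082 for mock against siControl.

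AARS1, the alanyl enzyme (chromosome 16, 70252295 to 70289543, minus strand, GRCh38), had the largest fall with siLong. Its level was 309.6 and 304.5 in mock, 323 and 319 in siControl, 281 and 271 in siTotal1, 250.5 and 237 in siTotal2, 161 and 161 in siLong1, and 176 and 175 in those labelled siLong2, in CPM. All 4 siLong libraries lay below the 4 siTotal libraries, and these lay below the 4 control libraries, with no overlap. The log2 fold change against siControl was -0.94 (SE 0.033, adjusted p = 3.3e-23) for siLong and -0.31 (SE 0.034, adjusted p = 1.1e-09) for siTotal. Against mock it was -0.87 (adjusted p = 8.3e-22) for siLong and -0.24 (adjusted p = 4.6e-07) for siTotal, and siTotal against siLong gave 0.63 (SE 0.028, adjusted p = 4.8e-20).

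YARS1, the tyrosyl enzyme, stood at 311 and 305 in mock, 349 and 346 in siControl, 259.6 and 236.5 in siTotal1, 261 and 250.2 in siTotal2, 258 and 251 in siLong1, and 161 and 161 in those labelled siLong2, in CPM. It overlaps S100PBP on the opposite strand by 1387 bases. Every siRNA library against NFYA lay below every control, and the libraries labelled siLong2 lay below all others. Against siControl its log2 fold change was -0.78 (SE 0.035, adjusted p = 4.1e-20) for siLong and -0.465 (SE 0.036, adjusted p = 1.7e-13) for siTotal, and mock against siControl gave -0.17 (adjusted p = 0.00079). The single siRNAs gave -0.49 for siTotal1, -0.44 for siTotal2, -0.45 for siLong1 and -1.11 for siLong2.

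CARS1, the cysteinyl enzyme, stood at 106 and 109 in mock, 121 and 121 in siControl, 108 and 104.5 in siTotal1, 90.4 and 90.4 in siTotal2, 84.2 and 89.4 in siLong1, and 73.96 and 77.2 in those labelled siLong2, in CPM. The 4 siLong libraries were the lowest of the 12, while siTotal1 overlapped mock. The log2 fold change was -0.58 (SE 0.037, adjusted p = 1.1e-15) for siLong and -0.30 (SE 0.037, adjusted p = 1.9e-08) for siTotal against siControl, and -0.17 (adjusted p = 0.0018) for mock.

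MARS1, the methionyl enzyme of the multisynthetase complex, stood at 286 and 275 in mock, 316 and 296 in siControl, 271 and 262 in siTotal1, 250.3 and 241 in siTotal2, 214 and 214 in siLong1, and 219 and 219.8 in those labelled siLong2, in CPM. Here too the siLong libraries were the lowest, and the siTotal libraries lay between them and the controls. On the log2 scale the change was -0.50 (SE 0.035, adjusted p = 8.5e-15) for siLong and -0.26 (SE 0.035, adjusted p = 1.2e-07) for siTotal against siControl. On the opposite strand in GENCODE 29 the MARS1 gene overlaps ARHGAP9 by 13370 bases and DDIT3 by 982 bases, and whether the counting used strand is not stated. DDIT3 stood at 5.69 to 21.2 CPM and MARS1 at 214 CPM or more, and no level is given here for ARHGAP9. The part of these overlaps in the MARS1 values was not tested.

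GARS1, which charges glycine in both compartments, stood at 308 and 319 in mock, 349 and 347 in siControl, 304 and 279 in siTotal1, 265 and 261 in siTotal2, 254 and 247 in siLong1, and 297 and 297 in those labelled siLong2, in CPM. All 8 libraries of the groups against NFYA were below the 4 controls. The change in log2 was -0.35 (SE 0.035, adjusted p = 7.4e-11) for siLong and -0.33 (SE 0.035, adjusted p = 6e-10) for siTotal against siControl.

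SARS1, the seryl enzyme, stood at 159.6 and 154.5 in mock, 184 and 184 in siControl, 191 and 176 in siTotal1, 148 and 144 in siTotal2, 163 and 162 in siLong1, and 128 and 137 in those labelled siLong2, in CPM. Mock and siControl did not overlap, siTotal1 lay on either side of siControl, and the libraries labelled siLong2 were lowest. The log2 fold change was -0.32 (SE 0.037, adjusted p = 2.5e-09) for siLong against siControl and -0.096 (adjusted p = 0.03) for siLong against mock, and 0.051 against mock without the libraries labelled siLong2. For this gene the controls differed, at -0.225 (adjusted p = 4.9e-05) for mock against siControl.

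EPRS1 and IARS1, both enzymes of the multisynthetase complex, were picked after their values were seen. EPRS1, which joins the glutamyl and prolyl enzymes, stood at 385 and 404 in mock, 420.3 and 428.5 in siControl, 356 and 317 in siTotal1, 347 and 347 in siTotal2, 376 and 368 in siLong1, and 373 and 373 in those labelled siLong2, in CPM. It was lower with siTotal than with siLong, at -0.125 (adjusted p = 0.00081) on the log2 scale. Against mock, EPRS1 gave -0.205 (adjusted p = 4.5e-05) with siTotal and did not pass with siLong, at -0.081 (adjusted p = 0.07). Mock against siControl gave -0.107 (adjusted p = 0.047) for EPRS1. IARS1 stood at 556 and 567 in mock, 568 and 573 in siControl, 540.2 and 502 in siTotal1, 457 and 456 in siTotal2, 489 and 476 in siLong1, and 509.8 and 512 in those labelled siLong2, in CPM, and its log2 fold change against siControl was -0.23 (adjusted p = 1.1e-06) for siTotal and -0.20 (adjusted p = 6.2e-06) for siLong. Of the 7 complex members counted here, 4 fell and 2 rose with siTotal and 6 fell and 1 rose with siLong, where 44.2% and 53.5% of all tested genes were called.

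**Figure D4:**
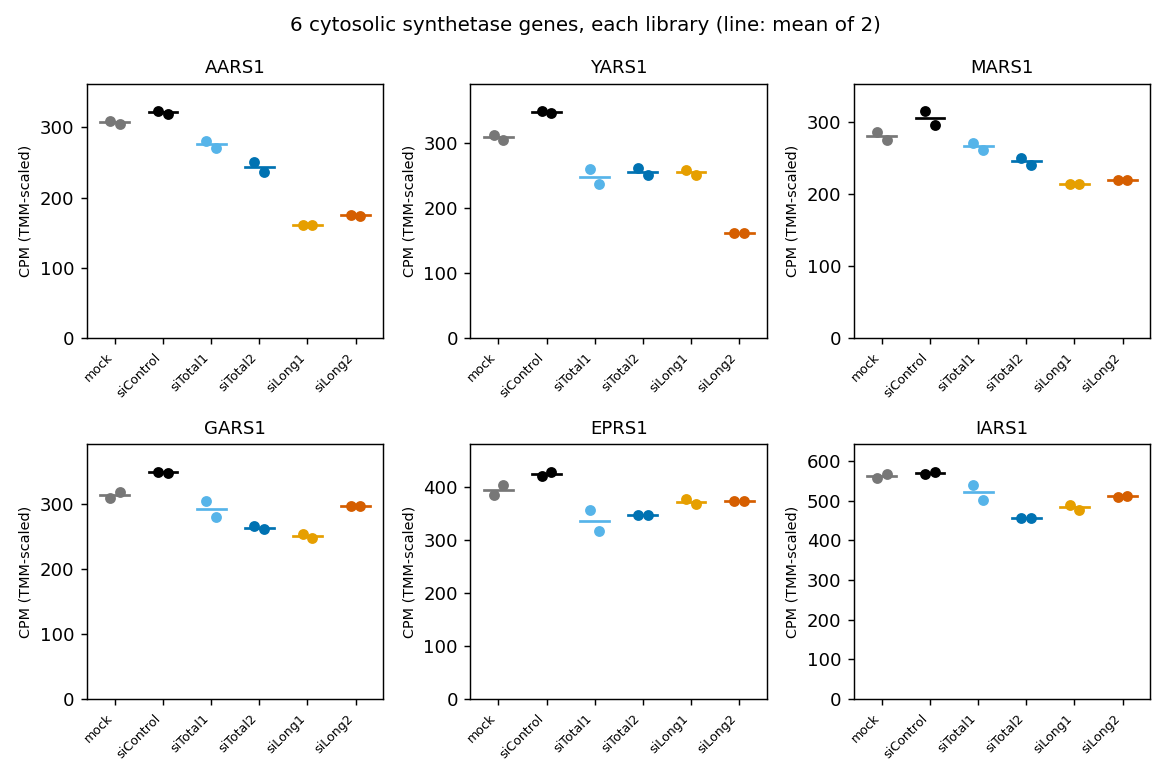
CPM (y axis, from 0) of AARS1, YARS1, MARS1, GARS1, EPRS1 and IARS1, the 6 cytosolic genes with no overlap, in each of the 12 libraries (points) by group (x axis), with a line at the mean of 2. AARS1 shows 3 separate levels, with controls at 304.5 to 323 CPM, siTotal at 237 to 281 CPM and siLong at 161 to 176 CPM.

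WARS1, the tryptophanyl enzyme, is also induced by interferon, and overlaps WDR25 on the opposite strand by 388 bases. Its level was 158 and 157 in mock, 169.9 and 164 in siControl, 165 and 154 in siTotal1, 137.5 and 132 in siTotal2, 128.5 and 127 in siLong1, and 175 and 184 in those labelled siLong2, in CPM. The siTotal2 and siLong1 libraries lay below both controls and the libraries labelled siLong2 above them. The log2 fold change against siControl was -0.060 (adjusted p = 0.27) for siTotal1, -0.305 (adjusted p = 2.1e-07) for siTotal2, -0.38 (adjusted p = 1.2e-09) for siLong1 and 0.11 (adjusted p = 0.034) for siLong2.

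QARS1 and LARS1, chosen after their values were seen, charge glutamine and leucine within the complex. QARS1 stood at 227 and 228 in mock, 201 and 199.9 in siControl, 255 and 258 in siTotal1, 223 and 214.5 in siTotal2, 181 and 179 in siLong1, and 163 and 168 in those labelled siLong2, in CPM. The siLong libraries were the lowest of the 12, siTotal1 was above both controls, and siTotal2 lay between siControl and mock. Against siControl the log2 fold change was 0.24 (adjusted p = 2.7e-07) for siTotal and -0.22 (adjusted p = 1.1e-06) for siLong, and siTotal against siLong gave 0.46 (SE 0.028, adjusted p = 1.9e-16). Against mock QARS1 did not pass with siTotal, at 0.059 (adjusted p = 0.19), and gave -0.40 (adjusted p = 1.3e-12) with siLong. Mock against siControl gave 0.18 (adjusted p = 0.00023). LARS1 was 0.32 (adjusted p = 2.7e-08) higher in mock than in siControl on the log2 scale, and with siTotal it was 0.14 (adjusted p = 0.0012) against siControl and -0.18 (adjusted p = 7.2e-05) against mock, opposite directions for the controls.

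Phenylalanyl-tRNA synthetase is built of FARSA and FARSB subunits. FARSB and RARS1 were chosen after their values were seen. FARSB stood at 182 and 183 in mock, 168 and 165.5 in siControl, 164 and 153 in siTotal1, 171 and 163 in siTotal2, 203 and 199 in siLong1, and 188 and 192 in those labelled siLong2, in CPM, and the 4 siLong libraries were above all 8 others, as they were for 5.65% of all tested genes. Its log2 fold change was 0.23 (SE 0.036, adjusted p = 1.1e-06) for siLong against siControl, and 0.010 (adjusted p = 0.83) for FARSA, which did not pass. RARS1, the arginyl enzyme, had 0.096 (adjusted p = 0.022) for siLong against siControl. The libraries labelled siLong2 gave 0.23 (adjusted p = 9.2e-06) and siLong1 -0.041 (adjusted p = 0.43).

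HARS1 and HARS2 encode the cytosolic and mitochondrial histidyl enzymes and lie head to head on chromosome 5. HARS1 (140673904 to 140691862, minus strand) and HARS2 (140691426 to 140699318, plus strand, GRCh38) overlap by 437 bases, and HARS1 overlaps WDR55 by 221. Reads there could be counted for either if strand was not used. HARS2 also overlaps ZMAT2 on its own strand, where strand does not separate the genes. The part of these overlaps in the values was not tested. HARS1 stood at 139.6 and 141 in mock, 145 and 144 in siControl, 189 and 180.4 in siTotal1, 154 and 155.5 in siTotal2, 144 and 147.5 in siLong1, and 192 and 193 in those labelled siLong2, in CPM. The siTotal libraries and the libraries labelled siLong2 were above all 4 controls, and siLong1 overlapped them.

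HARS2 stood at 64.6 and 66.5 in mock, 62.1 and 65.1 in siControl, 54.1 and 56.2 in siTotal1, 59.25 and 57.5 in siTotal2, 56.15 and 54.3 in siLong1, and 86.05 and 83.5 in those labelled siLong2, in CPM. The siTotal and siLong1 libraries were below the controls and the libraries labelled siLong2 above them. Against siControl, HARS1 gave 0.36 (adjusted p = 2.1e-09) for siTotal1, 0.10 (adjusted p = 0.039) for siTotal2, 0.014 (adjusted p = 0.8) for siLong1 and 0.42 (adjusted p = 3.1e-11) for siLong2. HARS2 gave -0.21 (adjusted p = 0.00065), -0.125 (adjusted p = 0.033), -0.205 (adjusted p = 0.00049) and 0.41 (adjusted p = 1.9e-09) in the same order.

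The log2 ratio of HARS1 to HARS2 CPM was 1.09 to 1.22 in the 4 control libraries. It was 1.80 and 1.68 in siTotal1, 1.37 and 1.44 in siTotal2, 1.35 and 1.44 in siLong1, and 1.16 and 1.21 in the libraries labelled siLong2. The first 3 of these groups lay above the controls, and the libraries labelled siLong2, where both genes rose, lay among them.

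**Figure D5:**
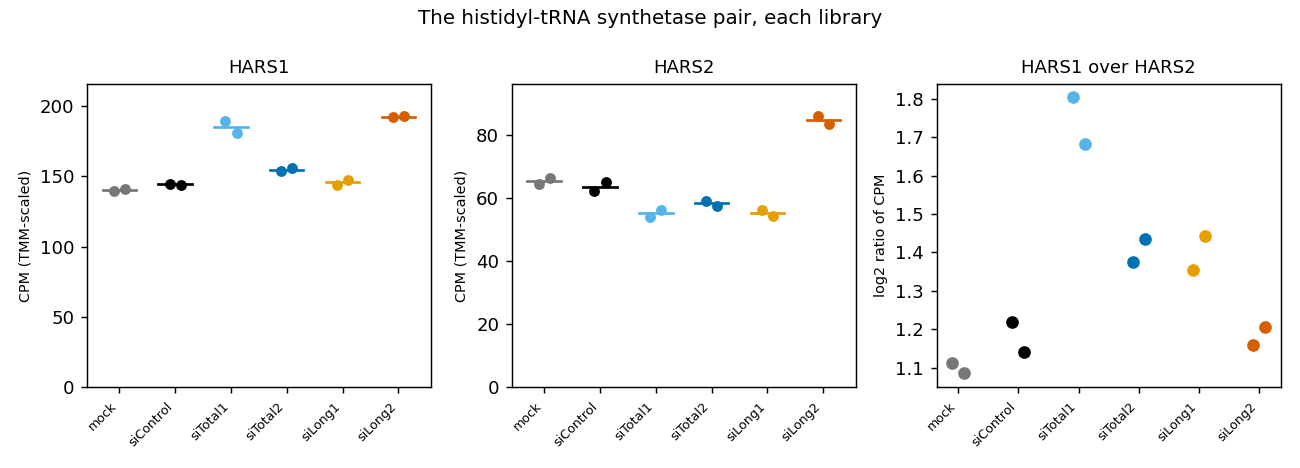
CPM of HARS1 and of HARS2 (left and middle, y axes from 0) and the log2 ratio of HARS1 to HARS2 (right, y axis not from 0) in each library (points) by group (x axis), with lines at the group means on the left and in the middle. HARS1 is highest in siTotal1 and siLong2, at 180.4 to 193 CPM, HARS2 in siLong2, at 83.5 and 86.05 CPM, and the ratio in siTotal1, at 1.80 and 1.68.

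Among mitochondrial genes the largest changes went both ways. MARS2, the mitochondrial methionyl enzyme, stood at 29.3 and 28.9 in mock, 24.8 and 22.7 in siControl, 23.2 and 22.02 in siTotal1, 27.7 and 28.85 in siTotal2, 25.75 and 26.03 in siLong1, and 39.04 and 38.02 in those labelled siLong2, in CPM. The libraries labelled siLong2 were above all others, and mock was above siControl. The log2 fold change of siLong against siControl was 0.41 (SE 0.055, adjusted p = 5.3e-08), with 0.12 (adjusted p = 0.1) for siLong1 and 0.70 (adjusted p = 3.8e-12) for siLong2, and mock against siControl gave 0.29 (adjusted p = 0.00019).

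RARS2, the mitochondrial arginyl enzyme, stood at 44.3 and 45.7 in mock, 54.7 and 56.1 in siControl, 50.8 and 49.1 in siTotal1, 45.8 and 43.6 in siTotal2, 48.25 and 43.1 in siLong1, and 38.4 and 40.2 in those labelled siLong2, in CPM. The siControl libraries were the highest of the 12, and mock overlapped the groups against NFYA. On the log2 scale the change was -0.39 (SE 0.047, adjusted p = 8.2e-09) for siLong and -0.23 (adjusted p = 1e-04) for siTotal against siControl, and -0.30 (adjusted p = 2.1e-05) for mock. Against mock, siLong gave -0.086 (adjusted p = 0.13) and siTotal 0.070 (adjusted p = 0.28).

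VARS2, the mitochondrial valyl enzyme, stood at 39.6 and 34.9 in mock, 28.96 and 29.8 in siControl, 33.5 and 37.9 in siTotal1, 31.6 and 33.98 in siTotal2, 45.1 and 47.4 in siLong1, and 30.8 and 31.1 in those labelled siLong2, in CPM. The siLong1 libraries were the highest and siControl the lowest, and the libraries labelled siLong2 lay just above siControl. The change in log2 was 0.365 (SE 0.057, adjusted p = 1.5e-06) for siLong against siControl, with 0.655 (adjusted p = 9.4e-11) for siLong1 and 0.075 (adjusted p = 0.36) for siLong2. It was 0.345 (adjusted p = 4.1e-05) for mock against siControl and 0.020 (adjusted p = 0.78) for siLong against mock. The VARS2 gene overlaps GTF2H4 on its own strand, and the part of this in its values was not tested.

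NARS2, the mitochondrial asparaginyl enzyme, stood at 36.3 and 37.96 in mock, 38.2 and 36.1 in siControl, 38.2 and 34.7 in siTotal1, 31.2 and 28.3 in siTotal2, 28.4 and 27.75 in siLong1, and 30.7 and 30.5 in those labelled siLong2, in CPM. All 4 siLong libraries were below the 4 controls, as for 12.6% of all tested genes, while siTotal1 overlapped the controls. The log2 fold change was -0.34 (SE 0.053, adjusted p = 1e-06) for siLong and -0.17 (adjusted p = 0.0066) for siTotal against siControl. EARS2, the mitochondrial glutamyl enzyme, was the only mitochondrial gene whose 4 siLong libraries lay below all 8 others, and 4 cytosolic genes (AARS1, CARS1, MARS1 and QARS1) did so, beside 6.76% of all tested genes. EARS2 overlaps UBFD1 on the opposite strand by 370 bases. It was picked after its values were seen, stood at 82.6 and 82.8 in mock, 75.6 and 75.2 in siControl, 77.99 and 72.2 in siTotal1, 72.7 and 73.8 in siTotal2, 58.98 and 59.7 in siLong1, and 58.65 and 61.2 in those labelled siLong2, in CPM, and gave -0.34 (adjusted p = 6.1e-09) for siLong against siControl.

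There were 13 amino acids with both a cytosolic and a mitochondrial gene of the same name here. In siTotal against siControl both genes fell for 1 of them and moved in opposite directions for 4 (CARS, HARS, SARS and VARS). In siLong against siControl both fell for 5, both rose for 1 and opposite directions were called for 4 (CARS, MARS, RARS and VARS). Against mock, opposite directions were called for 1 (HARS) with siTotal and for 0 with siLong. Between the controls, in mock against siControl, they were called for 2 (CARS and MARS). CARS2, the mitochondrial cysteinyl enzyme and chosen after its values were seen, stood higher in mock than in siControl as well, at 0.29 (adjusted p = 7.4e-05). By enzyme class, 7 of 18 class I genes fell and 4 rose with siTotal, and 7 of 16 class II genes fell and 3 rose. With siLong 13 class I genes fell and 4 rose, and 8 class II genes fell and 3 rose. EPRS1, which holds an enzyme of each class, was left out, and 22.2% and 28.4% of all tested genes fell with siTotal and siLong, while 22% and 25.1% rose.

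The direct comparison of siTotal with siLong shares no control library. Of the cytosolic genes, 8 were higher and 4 lower with siTotal, with a median of 0.025, and of the mitochondrial genes 8 were higher and 4 lower, with a median of 0.12, where 28.1% of all tested genes were higher and 25.3% lower, 53.4% in all. Of the ATF4-responsive genes, 7 of 13 were higher with siTotal and 1, EPRS1, was lower. The largest difference among the members was that of AARS1, followed by QARS1.

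The siRNAs to one target also differed from each other. Between siTotal1 and siTotal2, 12 cytosolic genes were higher in siTotal1 and 1 lower, and 6 mitochondrial genes were higher and 5 lower, beside 23.3% and 20.6% of all tested genes, 43.9% in all. The 11 called mitochondrial genes became 6 without siTotal1 replicate 2, and 7 without either siTotal2 library. Between siLong1 and siLong2, 8 cytosolic genes were higher in siLong1 and 7 lower, and 4 mitochondrial genes were higher and 8 lower, beside 26.7% and 27% of all tested genes, 53.7% in all. PARS2, the mitochondrial prolyl enzyme, had -0.49 (adjusted p = 2.4e-05) for siLong1 and 0.26 (adjusted p = 0.012) for siLong2 against siControl. YARS2 had -0.49 (adjusted p = 4.7e-09) and 0.096 (adjusted p = 0.15), and VARS1, the cytosolic valyl enzyme, 0.079 (adjusted p = 0.083) and -0.56 (adjusted p = 9.4e-15). These 3 were chosen after their values were seen.

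Against siControl, the single siRNAs gave the following counts of cytosolic genes lower and higher. They were 9 and 3 for siTotal1 (20.5% and 22.9% of all tested genes, 43.4% in all), and 13 and 3 for siTotal2 (22.6% and 22.6%, 45.1% in all). They were 12 and 2 for siLong1 (28.1% and 26.4%, 54.5% in all), and 12 and 4 for siLong2 (26.9% and 25.9%, 52.7% in all). Of mitochondrial genes, 3 were lower and 4 higher for siTotal1, 4 and 4 for siTotal2, 7 and 2 for siLong1, and 5 and 6 for siLong2. Called mitochondrial genes dropped from 7 to 2 without siTotal1 replicate 2, and from 8 to 5 and 4 without siControl replicate 2 and siTotal2 replicate 2.

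Grouped by the promoter words shown above, the 7 cytosolic genes with TGATGNAA held 6 that fell with siTotal and 7 that fell with siLong, with medians of -0.278 and -0.351, where 22.2% and 28.4% of all tested genes fell. The 9 cytosolic genes with a window and no such word held 4 that fell and 2 that rose with siTotal (median -0.076). With siLong they held 5 that fell and 3 that rose (median -0.087). The 7 are all among the 13 ATF4-responsive genes, and the 9 include all 6 others, so this split overlaps the earlier one. EPRS1, SARS1 and WARS1, which are ATF4-responsive with a window and no such word, fell as well. They had -0.312, -0.167 and -0.183 with siTotal, and -0.188, -0.322 and -0.139 with siLong. For CCAAT, the 7 cytosolic genes with it held 5 that fell and 1 that rose with siTotal, and the 9 without it the same numbers. With siLong the 7 held 7 that fell, and the 9 held 5 that fell and 3 that rose. The 9 mitochondrial genes with CCAAT held 1 that fell and 3 that rose with siTotal, and 4 and 2 with siLong. The 5 mitochondrial genes with a window and no CCAAT held 2 that fell and 0 that rose with siTotal, and 2 and 1 with siLong. The members carry these words in different places and the difference between such groups was not tested. YARS1, VARS1, LARS1, VARS2 and AARS2 had no window and are in none of these groups.

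Of 14 listed partners of the cytosolic enzymes, 13 were tested, and EEF1G did not pass the count filter. EEF1G had at most 0.085 CPM, while the listed EEF1A1, EEF1B2 and EEF1D had 374.7 CPM or more in every library. Whether this low count reflects expression or how reads were assigned was not tested. With siTotal 4 fell and 1 rose, where 44.2% of all tested genes were called, and with siLong 6 fell and 2 rose, where 53.5% were called. AIMP2, a scaffold of the multisynthetase complex, stood at 50.2 and 48.8 in mock, 45.5 and 44.9 in siControl, 50.3 and 45.7 in siTotal1, 53.6 and 46.97 in siTotal2, 30.4 and 29.5 in siLong1, and 26.45 and 26.55 in those labelled siLong2, in CPM, with all 4 siLong libraries below all 8 others. Its log2 fold change was -0.68 (SE 0.052, adjusted p = 1e-13) for siLong against siControl and 0.12 (adjusted p = 0.054) for siTotal. For siLong, SEPSECS, which makes selenocysteinyl-tRNA, had -0.51 (adjusted p = 1.4e-07), and EEF1E1, another complex scaffold, -0.42 (adjusted p = 6e-07). AARSD1, an editing protein for mischarged alanyl-tRNA, had 0.77 (adjusted p = 0.00014) for siLong, at a low level of 1.64 to 4.53 CPM over all libraries.

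Of 13 genes for mitochondrial tRNA charging, maturation and delivery, 3 fell and 1 rose with siTotal, and 1 fell and 3 rose with siLong. Their share of called genes was below that of all tested genes, 44.2% with siTotal and 53.5% with siLong. MTO1, which modifies the wobble base of mitochondrial tRNAs, had 0.64 (adjusted p = 1.3e-13) for siTotal and 0.89 (adjusted p = 6.3e-18) for siLong, and also 0.52 (adjusted p = 6.4e-10) for mock against siControl.

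Genes of the amino acid response outside the synthetases were mostly lower. Of 28 tested (of 29 listed), 19 fell and 3 rose with siTotal (median -0.306), and 20 fell and 1 rose with siLong (median -0.543), where 22.2% and 28.4% of all tested genes fell. In mock against siControl 13 of them were lower and 6 higher (median -0.116), where 20.3% of all tested genes were lower. Against mock 13 were lower with siTotal and 21 with siLong, beside 14.2% and 26.4% of all tested genes. ATF4 stood at 451 and 446 in mock, 576 and 568 in siControl, 472 and 445 in siTotal1, 350.1 and 354 in siTotal2, 306 and 309 in siLong1, and 302 and 311 in those labelled siLong2, in CPM, with siControl highest and all siLong libraries lowest. Its log2 fold change was -0.90 (SE 0.033, adjusted p = 1e-22) for siLong and -0.51 (SE 0.033, adjusted p = 2.6e-15) for siTotal against siControl. Against mock it was -0.55 (adjusted p = 3.9e-16) for siLong and -0.16 (adjusted p = 0.00036) for siTotal, and mock against siControl gave -0.35 (adjusted p = 2.4e-09).

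ASNS, which makes asparagine and is a standard target of ATF4, stood at 151 and 146 in mock, 156 and 148.5 in siControl, 133 and 129 in siTotal1, 123 and 118 in siTotal2, 53.7 and 51.1 in siLong1, and 75.5 and 74.7 in those labelled siLong2, in CPM. The siLong libraries were lowest, and the siTotal libraries lay below the controls. Its log2 fold change was -1.28 (SE 0.037, adjusted p = 1.1e-25) for siLong and -0.28 (adjusted p = 7.1e-08) for siTotal. For siLong against siControl, CHAC1, which degrades glutathione, had -1.82 (adjusted p = 3.7e-18), DDIT3, a stress transcription factor, -1.40 (adjusted p = 1.6e-18), and PCK2, a mitochondrial carboxykinase, -1.34 (adjusted p = 1.1e-18). Against mock these were -1.03 (adjusted p = 7.4e-11) for CHAC1, -0.43 (adjusted p = 1.4e-05) for DDIT3 and -1.51 (adjusted p = 3.6e-20) for PCK2, and mock against siControl gave -0.78 (adjusted p = 6.5e-08), -0.97 (adjusted p = 2.1e-12) and 0.17 (adjusted p = 0.053). DDIT3 stood at 10.75 and 10.09 CPM in mock and 10.28 and 9.88 CPM in siLong1, which overlap, and at 19.6 and 21.2 CPM in siControl. Of 6 eIF2alpha kinase genes and regulators, 1 rose and 2 fell with siTotal, and 4 rose and 1 fell with siLong, where 44.2% and 53.5% of all tested genes were called. EIF2AK4, which encodes GCN2, had 0.35 (adjusted p = 1.4e-10) for siLong and -0.12 (adjusted p = 0.0064) for siTotal. Protein, phosphorylation of eIF2alpha and tRNA charging were not measured here.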

How the data were processed

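Polyadenylated RNA of 12 HCT116 cultures was sequenced from stranded libraries, per the labels' protocols. STAR 2.4.0f1, featureCounts and the hg19 build are named in the submitters' processing notes, and the sources used here do not give the annotation release or whether strand was used. The authors deposited raw read counts per Ensembl gene. Symbols and positions came from GENCODE 29 on GRCh38 and promoters from RefSeq on GRCh38.p14, matched by name. Genes passing filterByExpr (minimum count 10, minimum total 15) were scaled by TMM and fitted for all 6 groups with edgeR 4.0.16 (R 4.3.3), with siTotal and siLong as means of their siRNA groups. Each contrast was tested by the quasi-likelihood F-test, two-sided, with Benjamini-Hochberg adjustment over 17730 genes, and genes under 0.05 were called. Fold changes are log2 values. Counts of 17317 genes were simulated with 50 genes changed at each fold size in siTotal, alike for both siRNAs. The changed genes were drawn from those averaging over 5 CPM. Of those changed 1.2-fold 72% were recovered, of those changed 1.5-fold 100%, and 5 of 191 calls were false. In the data, siTotal against siControl called 44.2% of genes and the siTotal siRNAs differed from each other, so these rates may not carry over to the members. Duplicate libraries varied beyond counting noise (chi-square per degree of freedom 1.87 to 7.89).

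The members and lists were chosen with earlier results of these data known. Named in full were, of the called members, the 6 cytosolic and 4 mitochondrial ones with the largest change in siLong or siTotal against siControl, HARS1 and HARS2, and WARS1, with up to 4 called members of each pathway list. Alternatives were DESeq2 1.42.0, RLE scaling, no filter, a replicate block, the compared groups alone, each library left out, and siLong without siLong2. Pooled controls and the scalings behind the count of genes with no overlap were added after the data were seen. Same-numbered libraries deviated together in 6 of 15 group pairs (correlation over 0.1), so the numbers were not taken as pairs.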

Additional observations from a re-analysis of the deposited data

Results flagged for a closer look

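Comparisons of siRNAs to the same target, and of the targets, were marked because the difference itself was tested and passed (edgeR's quasi-likelihood test, adjusted p under 0.05). Of the 35 synthetase genes, 24 differed between siTotal1 and siTotal2 and 24 between siTotal and siLong, where 43.9% and 53.4% of all tested genes differed. The number was 27 for the siLong siRNAs, where 53.7% of all tested genes differed. Single genes whose effects against siControl were called in opposite directions were also marked, with the log2 difference between the groups. YARS2 differed by 0.365 (siTotal1 minus siTotal2). For siLong1 minus siLong2 the difference was -0.489 for WARS1, -0.619 for HARS2 and -0.746 for PARS2. Between siTotal and siLong it was 0.231 for LARS1, 0.456 for QARS1 and -0.27 for HARS2. Without the libraries labelled siLong2 the siLong value against siControl turned to 0.035 for LARS1 and -0.203 for HARS2. Groups of 2 libraries were too small for a search for single outlying libraries.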

How the results depend on the processing

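Of 3850 recomputed log2 values of members, 3577 kept their call or stayed uncalled, 212 were no longer called, 51 became called and 10 reversed. Values uncalled in both fits were not compared for direction, so a reversal here is of a value called in either fit. All 10 reversals came from leaving out the group siLong2. In siLong against siControl they were LARS1 at 0.035, RARS1 at -0.039, VARS1 at 0.081, AARS2 at 0.02, HARS2 at -0.203 and WARS2 at 0.06. In siLong against mock they were SARS1 at 0.051, VARS1 at 0.008, HARS2 at -0.246 and MARS2 at -0.169. The cause was not tested.

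Several counts of called genes moved by over 1.5 times. With one library left out, the mitochondrial count was 4 to 7 in siTotal against siControl (7 with all libraries), 2 to 7 in siTotal1 (7) and 4 to 8 in siTotal2 (8) against siControl, and 6 to 10 in siTotal1 against siTotal2 (11). The count of all genes in siTotal against mock was 3505 to 5705 (5455), with the lowest value without mock replicate 1. With the mean of mock and siControl as the control, siTotal gave 4 mitochondrial genes, 4 lower and 0 higher, where siControl alone gave 3 lower and 4 higher. Without the filter, siTotal2 against siControl gave 3 members higher and 17 lower, where the filter left 7 higher. Counts in 1 direction also moved. Members higher in siTotal against siControl went from 7 to 4 without siControl replicate 1, and in siLong against siControl from 7 to 4 without the group siLong2. Those higher in siTotal1 went from 7 to 4 without siControl replicate 1 or siTotal1 replicate 2. Those higher in siTotal2 went from 7 to 3 without siControl replicate 1 or siTotal2 replicate 2 and to 2 without siControl replicate 2. Members lower in siTotal1 than in siTotal2 went from 6 to 3 without siTotal1 replicate 2.

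With the replicate number as a block, siTotal against siControl still gave 7 members higher and 15 lower, siLong against siControl 7 and 22, and 417 of 420 member values kept their call. Every p rests on 2 libraries a group, and mitochondrial genes had as few as 157 reads, so small changes there were less detectable.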
